A study of Caenorhabditis elegans with 119 samples.

Results

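UDP-glucuronosyltransferases (UGTs) were followed across every library of a sulforaphane study in adult Caenorhabditis elegans. Members were the genes of the deposited count tables whose symbol in the WBcel235 annotation starts with ugt-, other than ugt-25 and ugt-26, which were not used here. The rule used no measured value and found 65 genes among 46926, all of them protein-coding. UGTs are enzymes of the endoplasmic reticulum membrane that transfer a sugar from a UDP-linked donor to fat-soluble molecules, which makes those molecules soluble and ready for export. They form a large arm of phase II detoxification, together with glutathione S-transferases and sulfotransferases, and the intestine is held to be the main site of this work in the worm. In nematodes the sugar is often glucose rather than glucuronic acid, and for most members the substrate is not established, so the gene names rest on sequence similarity. Worm detoxification genes are known to be driven by SKN-1, the Nrf-type transcription factor, and by nuclear hormone receptors.

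The tested treatment was sulforaphane (SFN), an isothiocyanate of cruciferous vegetables, set against its solvent DMSO at 0.25% in the plate. The SFN dose is not given in the sources used here. PX991 carries the daf-16 allele fx107 and EU1 the skn-1 allele zu67, both loci coding for transcription factors of stress resistance, and N2 is the wild type; what fx107 changes in the gene is not stated in the labels. All strains lived from day 1 of adulthood at 20 °C on OP50-1 bacteria with 51 µM FUdR, which stops the growth of offspring, so the controls carried that drug too. PX991 was sampled at days 4 and 12 with 4 SFN and 4 DMSO libraries per age, EU1 at the same ages with 6 and 6, except 5 for SFN at day 4, and N2 at days 2, 4, 8, 12 and 16 with 4 and 4. A separate set of 40 N2 libraries in DMSO, labelled trials 2 and 3, held 4 libraries per age and trial. Each library pooled about 50 whole worms, so a lower level can mean fewer cells of a type or less RNA per cell, which cannot be told apart here.

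Total counts ran from 0.445 to 12.5 M (M for 1e6 reads counted) in the N2 treatment table, 0.585 to 5.46 M in PX991, 2.06 to 10.3 M in EU1 and 1.07 to 8.61 M in trials 2 and 3. A pair of N2 DMSO libraries stood apart by the number of genes found at a common depth of 444501 counts. Day 4 replicate 4 held 6660 genes with 10 members at 1 count or more, and day 2 replicate 1 held 7116 genes with 19 members, so results that rest on them are given with and without them. Every N2 DMSO library of these ages held fewer genes than every SFN library of its age. The ranges were 7116 to 10218 with DMSO and 10603 to 10783 with SFN at day 2. At day 4 they were 6660 to 10764 with DMSO and 11175 to 11298 with SFN. Leaving out the pair does not remove this difference, and its part in the results was not tested. PX991 SFN day 12 replicate 3, the shallowest PX991 library, held 15327 genes where the others of its group held 11186 to 12254. In EU1 at day 4, ribosomal RNA took 47.9% of counts in SFN replicate 3 (9420 genes) and 36.8% in DMSO replicate 3 (10450 genes), and at most 11.9% in the other libraries of that age. The group means of skn-1 lay between 95 and 124 CPM (counts scaled to the library total) in EU1, against 243 to 302 CPM in the N2 treatment table. Group means of daf-16 lay between 101 and 164 CPM in PX991, against 140.0 to 242 CPM in N2, but strains and tables are confounded here. SFN did not move skn-1 past the threshold at any N2 age, and daf-16 was 0.48 ± 0.11 higher (log2, SE) in N2 SFN worms at day 4.

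The members lie mostly on chromosome V, which holds 42 of the 65, with 12 on IV, 4 on X, 3 each on I and III and 1 on II. In 10 runs of neighbours no more than 20000 bases apart, 35 members follow each other, and the other 30 stand alone. The longest run, V:4887165-4911399, holds ugt-8, ugt-9, ugt-10, ugt-11, ugt-12, ugt-13, ugt-14 and ugt-67, and V:7139475-7169281 holds ugt-36, ugt-37, ugt-38, ugt-39, ugt-40 and ugt-41. A run of 7 at V:12790676-12830114 holds ugt-3, ugt-4, ugt-5, ugt-6, ugt-15, ugt-16 and ugt-18. Summed exon length ran from 1542 to 2909 bases with a median of 1707. Neighbours within a gene family are often similar in sequence, so the counting could split reads between copies, and single members of a run are uncertain to that extent. Exon bases shared with another gene touched 16 members: 15.5% of ugt-22 overlaps mostly the antisense gene srz-29, 17% of ugt-50 overlaps nhr-26, and the other 14 share less. Counting of the N2 treatment table used no strand, so such reads could not be assigned to one gene.

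Levels between genes were compared per length, as TPM (transcript counts scaled by exon length and library) over the 20 DMSO libraries of the N2 treatment table. The order was led by ugt-58 at 33.1 ± 12.7 TPM (SD, n = 20), ugt-64 at 29.8 ± 9.0 TPM and ugt-62 at 23 ± 14.1 TPM. Behind them came ugt-29 at 21 ± 11.5 TPM, ugt-44 at 18.2 ± 20.9 TPM, ugt-31 at 18.2 ± 11.4 TPM and ugt-22 at 17.6 ± 14.1 TPM. The list of 10 closed with ugt-23 at 16.0 ± 9.88 TPM, ugt-48 at 13.7 ± 3.61 TPM and ugt-41 at 11.6 ± 7.75 TPM. No neighbours in this order differed beyond their spread, which spans 5 ages, and the 10 genes held 60.1% of the family's TPM. At the other end, 8 members had too few counts to be tested in any fit, namely ugt-3, ugt-10, ugt-15, ugt-35, ugt-38, ugt-42, ugt-56 and ugt-67, while 39 were tested in all 5 fits. Every member had at least 1 count somewhere in the series.

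In wild-type worms UGT members rose with SFN, most of them at days 12 and 16, and no member fell. In the fit of all 40 libraries, of 56 tested members, 3 rose at day 2, 7 at day 4, 6 at day 8, 30 at day 12 and 23 at day 16 (edgeR quasi-likelihood test, adjusted p under 0.05 over all 12735 genes tested). The background of higher genes was 2.7% at day 2, 7.06% at day 4, 2.84% at day 8, 13.8% at day 12 and 11.9% at day 16, and that of lower genes 1.63%, 3.24%, 0.683%, 4.99% and 7.45% at the same ages. As shares of tested members the counts were 5.36%, 12.5%, 10.7%, 53.6% and 41.1%. The gap to the background in percentage points was widest at days 12 and 16 and smallest at days 2 and 4. At day 8 the gap was large against its small background. Members with every SFN library above every DMSO library numbered 8, 13, 24, 36 and 24 at those ages. All genes gave 7.27%, 9.63%, 9.65%, 20.3% and 16.2%. The reverse order held for 1 member, at day 16, beside 13% of all genes. The median log2 fold change of tested members was 0.50, 0.71, 0.62, 1.40 and 0.98 at days 2, 4, 8, 12 and 16, beside 0.07, 0.10, -0.02, 0.00 and -0.01 over all genes tested. Members above a fold change of 0 numbered 46, 51, 48, 53 and 48 of 56 at those ages.

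The summed level of the 65 members shows the size of the difference. At day 2 it averaged 870.3 ± 78.3 CPM in SFN worms and 618 ± 74.2 CPM in DMSO worms (SD, n = 4 each). At day 4 the sums were 1029.95 ± 33.4 CPM with SFN and 568.2 ± 281 CPM with DMSO, where the wide spread includes the library with the fewest genes. The sums were 1042 ± 123 CPM with SFN and 619 ± 18.4 CPM with DMSO at day 8. They were 1015 ± 159 CPM with SFN and 372 ± 38.7 CPM with DMSO at day 12. At day 16 the SFN libraries averaged 604 ± 91.5 CPM and the DMSO libraries 295 ± 26.9 CPM. At each of the 5 ages every SFN library held a larger sum than any DMSO library. The largest single share of the mean sum was that of ugt-29 in SFN worms, 16.5% at day 12, and that of ugt-58 in DMSO worms, 17.5% at day 16.

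Over the 5 ages, 34 members rose at 1 age or more: 13 at 1 age, 12 at 2, 5 at 3, 3 at 4 and 1 at all 5. Of all 12735 genes tested, 23% rose at 1 age or more, 3.87% at 3 or more and 0.157% at all 5, beside 34, 9 and 1 of the 56 tested members. The member called at every age was ugt-46 (WBGene00015141, X:525928-530289). At day 2 ugt-46 measured 76.2, 52.5, 58.1 and 57.9 CPM in SFN libraries, against 38.6, 19.7, 17.9 and 28.2 CPM in DMSO libraries. At day 8 it measured 55.9, 46.9, 41.4 and 44.1 CPM with SFN, against 7.51, 8.81, 5.26 and 8.41 CPM with DMSO. At day 12 the SFN libraries held 42.3, 28.2, 31.9 and 29 CPM, against 4.13, 3.03, 3.15 and 4.64 CPM in DMSO libraries. All SFN libraries were above all DMSO libraries at these ages, and both treatments were lower at the later ages. The log2 fold change of ugt-46 was 1.33 ± 0.27 at day 2 (SE, adjusted p = 0.0032), 2.39 ± 0.28 at day 4 (adjusted p = 1.1e-07), 2.68 ± 0.29 at day 8 (adjusted p = 3.4e-09), 3.13 ± 0.28 at day 12 (adjusted p = 2.3e-12) and 2.24 ± 0.27 at day 16 (adjusted p = 1.7e-08). One of its DMSO values at day 4 was 0 CPM, in the library with the fewest genes, and without the pair of such libraries the day 4 value of ugt-46 was 2.25 (log2).

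**Figure D1:**
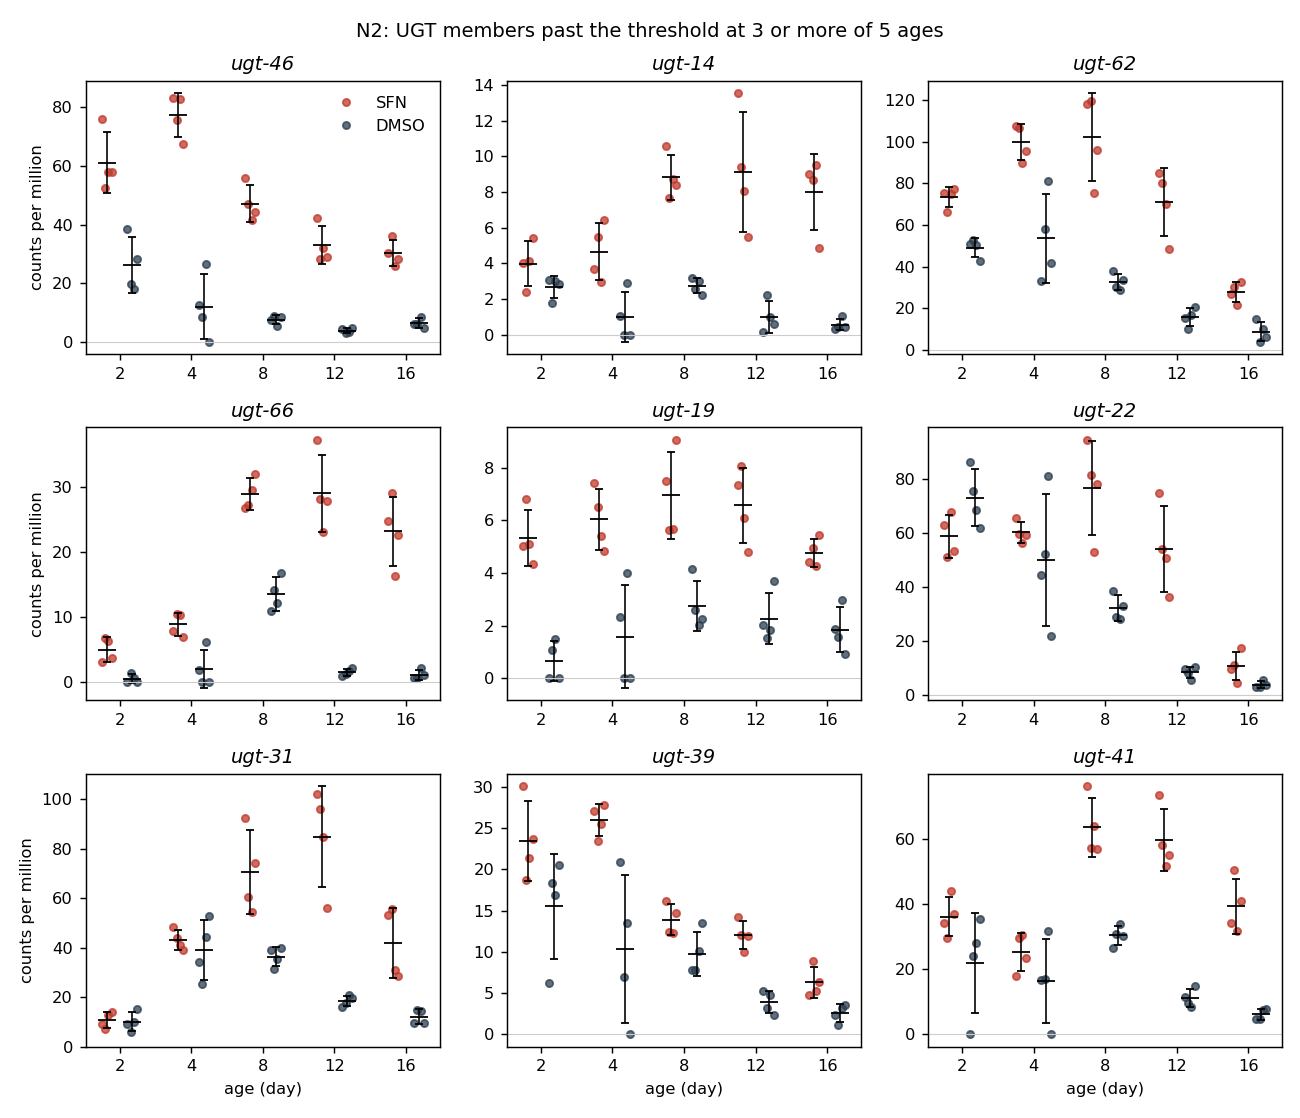
Levels in CPM (vertical axis) against age in days (horizontal axis) for the 9 UGT members that rose at 3 or more of 5 ages in N2, one point per library, SFN left and DMSO right, with the mean and SD of 4 libraries as bars. SFN and DMSO points of ugt-46 are separate at every age, while ugt-22 and ugt-31 overlap at days 2 and 4 and separate at days 8 and 12.

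The members called at 4 ages were ugt-14, ugt-62 and ugt-66. For ugt-66 (WBGene00016013, III:6192116-6194580), day 12 gave 37.3, 28.2, 23.1 and 27.8 CPM with SFN, against 0.879, 1.25, 1.74 and 2.11 CPM with DMSO. Day 16 gave 24.8, 29.1, 16.3 and 22.6 CPM with SFN, against 0.599, 0.633, 2.20 and 1.03 CPM with DMSO. The treatments were far apart at both ages, with fold changes of 4.25 ± 0.42 (log2, SE, adjusted p = 2.6e-11) and 4.34 ± 0.44 (adjusted p = 1.4e-10). At day 2, ugt-66 had a log2 fold change of 2.80 ± 0.62 (adjusted p = 0.0063), on only 63 counts with SFN and 12 with DMSO. For ugt-62 (WBGene00010904, III:4537281-4540623), day 8 gave 118, 119.7, 75.3 and 96.0 CPM with SFN, against 38, 30.3, 29 and 33.6 CPM with DMSO. The lowest SFN library of ugt-62 was well above the highest DMSO library, and the log2 fold change was 1.64 ± 0.24 (adjusted p = 4.4e-06), beside 2.17 ± 0.24 at day 12. For ugt-14 (WBGene00019233, V:4906253-4908304), day 16 gave 9.03, 8.69, 9.50 and 4.87 CPM with SFN, against 0.342, 0.422, 1.05 and 0.460 CPM with DMSO. The groups of ugt-14 did not overlap there, with a log2 fold change of 3.77 ± 0.52, but its day 8 call (1.63 ± 0.47, adjusted p = 0.038) was lost whenever any 1 of the 8 libraries of that age was left out.

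The members called at 3 ages were ugt-19, ugt-22, ugt-31, ugt-39 and ugt-41. For ugt-31 (WBGene00021464, I:2333338-2338693), day 12 gave 102, 96.1, 84.8 and 56.2 CPM with SFN, against 16.1, 17.7, 20.8 and 19.7 CPM with DMSO. For ugt-22 (WBGene00007455, IV:13639260-13644567), day 12 gave 75, 54, 50.8 and 36.5 CPM with SFN, against 9.67, 8.21, 5.47 and 10.3 CPM with DMSO. Both genes were separate by treatment at day 12, with log2 fold changes of 2.19 ± 0.23 for ugt-31 (adjusted p = 1.2e-10) and 2.69 ± 0.26 for ugt-22 (adjusted p = 2e-11). At day 2, ugt-22 gave 63.2, 51.0, 68.0 and 53.6 CPM with SFN, against 86.4, 75.8, 68.4 and 61.9 CPM with DMSO. Those day 2 groups overlapped, and the log2 fold change was -0.29 and did not pass the test. As background, ugt-22 has been studied in C. elegans for its effect on the potency of the benzimidazole drug albendazole. For ugt-41, day 12 gave 73.5, 58.3, 51.8 and 55 CPM with SFN, against 11.6, 9.55, 8.45 and 14.8 CPM with DMSO. The log2 fold change of ugt-41 was 2.42 ± 0.30 at day 12 and 2.68 ± 0.32 at day 16, with no overlap at day 12. At day 2, ugt-19 averaged 5.32 ± 1.06 CPM with SFN and 0.646 ± 0.766 CPM with DMSO (SD, n = 4 each), a log2 fold change of 2.58 ± 0.60 (adjusted p = 0.0096).

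Days 12 and 16 held most of the calls past the threshold. The 20 members called at both ages were 66.7% of the 30 at day 12 and 87.0% of the 23 at day 16. At day 12 the fold changes past the threshold ran from 4.54 ± 0.79 for ugt-36 and 4.39 ± 0.70 for ugt-34 (log2, SE) down to 0.58 ± 0.15 for ugt-58. Counts behind the first pair were small: ugt-36 had 71 counts with SFN and 6 with DMSO, and ugt-34 had 82 counts with SFN and 7 with DMSO. At day 16, ugt-34 had 60 counts with SFN and 0 with DMSO, so its level was at least 5.47 higher on the log2 scale, taking a floor of 3 counts over the group. For ugt-44 (WBGene00008486, IV:10469741-10471899), day 12 gave 36, 19.6, 29.6 and 15.7 CPM with SFN, against 1.41, 1.79, 2.07 and 4.91 CPM with DMSO. Day 16 gave 0.961, 0.235, 0.475 and 0.286 CPM with SFN, against 1.71, 0.211, 1.73 and 0.230 CPM with DMSO. The day 12 groups of ugt-44 did not overlap (3.28 ± 0.45, adjusted p = 6.3e-07), whereas at day 16 they overlapped, no library reached 2 CPM, and the difference of -0.96 ± 1.03 did not pass the test (adjusted p = 0.57). For ugt-29 (WBGene00021709, V:696524-699589), day 12 gave 192, 202, 165 and 109.8 CPM with SFN, against 34.5, 34.7, 48.5 and 47.2 CPM with DMSO. These groups of ugt-29 were apart, with a log2 fold change of 2.02 ± 0.30, beside 0.86 at day 16.

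The most abundant member in DMSO behaved differently in size. At day 12, ugt-58 (WBGene00009450, II:9584384-9586784) gave 99.4, 85.1, 89.9 and 78.7 CPM with SFN, against 59.2, 47.9, 59.5 and 69.8 CPM with DMSO. It was higher in every SFN library than in any DMSO library, by 0.58 ± 0.15 (log2, SE), and day 12 was the only age at which it passed the test. For ugt-64, the second by TPM, day 12 gave 46.5, 51.3, 42.3 and 47.5 CPM with SFN, against 53.3, 45.0, 26.4 and 43.8 CPM with DMSO, and these groups overlapped.

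Members that follow each other on chromosome V were counted by run, beside 53.6% of all tested members higher at day 12 and 41.1% at day 16. In the run from ugt-8 to ugt-67, 4 of 6 tested members rose at day 12 and 6 of 6 at day 16, and in the run from ugt-36 to ugt-41 all 5 tested members rose at both ages. Of the latter, ugt-36, ugt-37 and ugt-40 averaged only 0.31, 0.29 and 0.23 TPM in N2 DMSO libraries. They may have passed the count filter only through SFN libraries, so the count for this run is a description and not support for a shared response. In the run from ugt-3 to ugt-18, 3 of 5 tested members rose at day 12 and 0 of 5 at day 16. For ugt-8 (WBGene00019234, V:4903930-4905942), day 12 gave 15.9, 17.2, 13.1 and 12.3 CPM with SFN, against 2.37, 2.95, 0.662 and 2.32 CPM with DMSO. For ugt-9 (WBGene00020587, V:4896048-4897969), day 12 gave 19.5, 15.8, 17.4 and 17.3 CPM with SFN, against 2.72, 2.23, 2.15 and 3.14 CPM with DMSO. Each pair of groups was separate, with log2 fold changes of 2.81 ± 0.49 for ugt-8 and 2.76 ± 0.44 for ugt-9. Similar copies could share reads here, so the members of a run are not independent.

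The counts at the young ages rested on few libraries and on the fit. With only the 2 groups of an age in the fit, 0 of 43 tested members passed at day 2 (0.202% of all genes higher), 1 of 39 at day 4 (0.401%) and 18 of 43 at day 8 (9.77%). In that fit ugt-46 was at 1.27 (log2, adjusted p = 0.0814) at day 2 and was the member that passed at day 4. Leaving out 1 library at a time moved the 3 members at day 2 to 5 without DMSO replicate 3, the 6 at day 8 to 3 without SFN replicate 1, and the 7 at day 4 to between 2 (without SFN replicate 2) and 18 (without DMSO replicate 3), with 3 or 4 without SFN replicates 1 or 4 or DMSO replicates 2 or 4. Without the pair of DMSO libraries with the fewest genes, 5 members rose at day 2, 8 at day 4, 10 at day 8, 34 at day 12 and 28 at day 16 of 57 tested, and none fell. The background then moved as well, to 3.8%, 9.51%, 3.57%, 15.7% and 14.5% of all genes higher and 4.75%, 8.08%, 0.882%, 13.3% and 13.6% lower at the same ages, and the members higher were 8.77%, 14%, 17.5%, 59.6% and 49.1% of those tested.

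Marker genes of tissues moved beside these members, and their part in the result was not tested. Over all genes tested 2.7%, 7.06%, 2.84%, 13.8% and 11.9% rose at days 2, 4, 8, 12 and 16, and 7.45% fell at day 16. All 6 muscle markers rose at day 12, with a summed level of 517 to 796 CPM in SFN libraries and 106 to 137 CPM in DMSO libraries, and 5, 4 and 5 of 6 rose at days 4, 8 and 16. Both tested hypodermis markers rose at days 12 and 16 and 1 of them at days 4 and 8, and the defining markers dpy-7, rol-6 and col-10 were at 0 in at least one whole group. Of the 6 intestine markers, 2 rose at each of days 4 and 8, 2 rose at day 12, when their sum was 219 to 311 CPM with SFN and 193 to 331 CPM with DMSO, and 2 rose and 2 fell at day 16. Of 9 germline and oocyte markers, 7 rose at day 16, with sums of 8183 to 9899 CPM in SFN libraries and 6308 to 7449.8 CPM in DMSO libraries, and none passed at the other ages. One of 7 neuron markers rose at each of days 2, 4 and 12. At day 2 none of the muscle or intestine markers passed the test, which does not show that their levels were unchanged. Ribosomal RNA took 4.21 to 8.85% of counts in SFN libraries of day 2 and 0.51 to 1.69% in DMSO libraries. It took 2.58 to 3.30% with SFN and 0.56 to 1.05% with DMSO at day 12, and 1.71 to 2.07% with SFN and 0.549 to 0.75% with DMSO at day 16, without overlap, while days 4 and 8 overlapped. At day 12 total counts were 3.68 to 8.62 M in SFN libraries and 10.6 to 12.5 M in DMSO libraries. The library names of the N2 treatment table open with a letter and a number, whose meaning is not stated. SFN and DMSO libraries of an age shared that number only at day 8. DMSO libraries of days 12 and 16 carried a number found in no SFN library. Treatment and any batch that the number marks cannot be told apart at days 2, 4, 12 and 16.

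Whether the SFN difference itself changed with age was tested by 1 F test over the 5 ages. It passed for 15 of 56 members, where 13% of all genes passed. The members with the smallest adjusted p were ugt-22 (1.2e-07), ugt-31 (1.1e-05), ugt-66 (2.2e-05) and ugt-41 (6.1e-05). In ugt-22 the log2 fold change was -0.29 at day 2, 0.16 at day 4, 1.26 at day 8, 2.69 at day 12 and 1.43 at day 16. In ugt-46 the test also passed (adjusted p = 0.0096), although the gene rose at every age. The 15 members are 26.8% of those tested, and leaving out 1 library at a time moved the count to between 10 and 15.

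**Figure D2:**
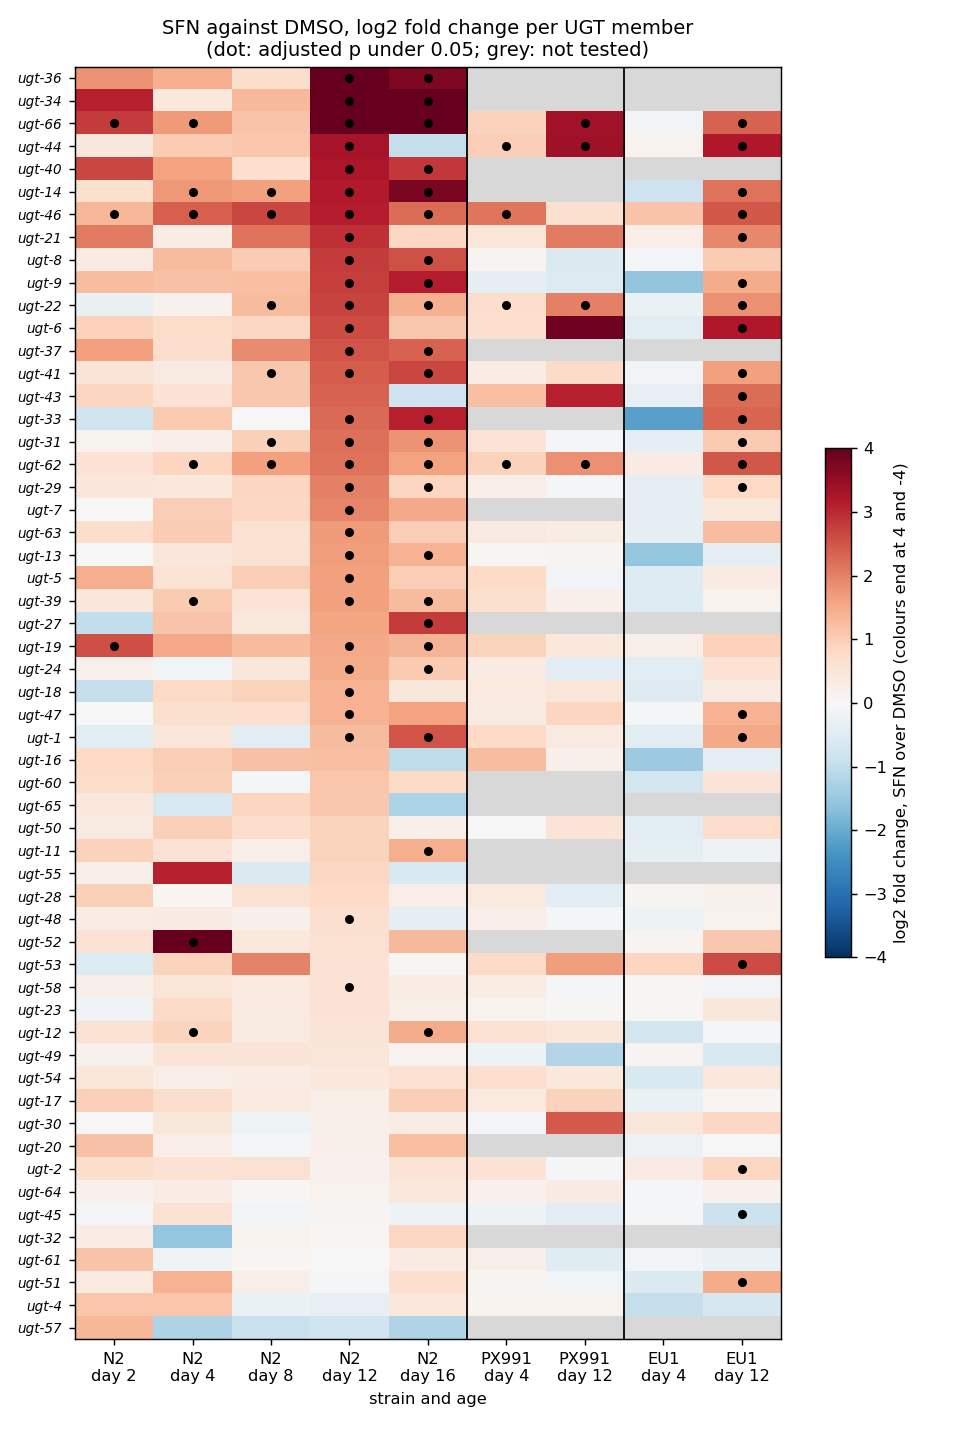
Log2 fold change of SFN over DMSO (colour) for each tested UGT member (vertical axis) by strain and age (horizontal axis), ordered by the N2 value at day 12, with a dot where the adjusted p was under 0.05 and grey where the member was not tested. N2 has 30 dots at day 12 and 23 at day 16, PX991 has 4 at each age, and EU1 has none at day 4 and 20 at day 12.

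In PX991, the daf-16 strain, 4 members rose at each age, led by ugt-46 at day 4 and by ugt-44 at day 12. Against 40 tested members, the 4 at day 4 stand beside a background of 0.347% of all genes higher and 0.159% lower, and the 4 at day 12 beside 2.43% higher and 2.25% lower. No member fell at either age. The median log2 fold change was 0.39 over members and 0.02 over all genes at day 4, and 0.31 over members and -0.02 over all genes at day 12. For ugt-46, day 4 gave 66.6, 48.4, 59.1 and 61.9 CPM with SFN, against 16.1, 11.2, 10.6 and 15.5 CPM with DMSO. The groups of ugt-46 were far apart at day 4, with a log2 fold change of 2.13 ± 0.21 (adjusted p = 9.6e-07). At day 12 ugt-46 gave 9.39, 7.79, 8.12 and 7.02 CPM with SFN, against 7.12, 3.46, 4.45 and 4.98 CPM with DMSO. The day 12 groups of ugt-46 overlapped, and the difference of 0.65 ± 0.31 did not pass the test (adjusted p = 0.25).

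The other members that rose in PX991 at day 4 were ugt-44, ugt-62 and ugt-22. For ugt-44, day 4 gave 245, 146, 211 and 187 CPM with SFN, against 94.0, 97.0, 105 and 101 CPM with DMSO. For ugt-22, day 4 gave 345, 265, 277 and 257 CPM with SFN, against 155, 206, 187 and 161 CPM with DMSO. No SFN library of these overlapped a DMSO library, and the log2 fold changes were 0.98 ± 0.14 for ugt-44 (adjusted p = 0.00037), 0.92 ± 0.17 for ugt-62 (adjusted p = 0.0052) and 0.69 ± 0.16 for ugt-22 (adjusted p = 0.042). The call of ugt-22 was lost when any 1 of the 8 libraries was left out, so that 3 members then remained past the threshold. At day 12, ugt-44 gave 18.2, 14, 21.1 and 15.5 CPM with SFN, against 1.26, 0.769, 2.67 and 2.49 CPM with DMSO. The same gene was thus high in each SFN library, with a log2 fold change of 3.39 ± 0.35 (adjusted p = 4.5e-06) on 111 counts with SFN and 11 with DMSO. At day 12, ugt-62 gave 34.4, 20.3, 24.3 and 21.8 CPM with SFN, against 8.38, 6.15, 7.12 and 5.82 CPM with DMSO. At day 12, ugt-22 gave 31.9, 17.7, 29.2 and 20.3 CPM with SFN, against 4.61, 3.84, 11.6 and 6.65 CPM with DMSO. These were separate groups too, with log2 fold changes of 1.84 ± 0.26 for ugt-62 (adjusted p = 0.00014) and 2.00 ± 0.29 for ugt-22 (adjusted p = 0.00016). The fourth member, ugt-66, had a log2 fold change of 3.37 ± 0.71 (adjusted p = 0.006) on 41 counts with SFN and 4 with DMSO. Beside these, 1 of 6 muscle markers rose in PX991 at day 12, with a sum of 143 to 404 CPM in SFN libraries and 79.6 to 133 CPM in DMSO libraries, and their part was not tested. Without SFN replicate 3, the library with the most genes, 5 members rose at day 12.

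The SFN difference in PX991 was set against that in N2 in 1 model. At day 12 it was smaller in PX991 for 7 of 55 members and larger for none, where 2.96% of all genes were smaller and 0.961% larger, with a median of -0.77 over members and 0.01 over all genes. Marker medians in the same test were -1.40 for muscle, -1.13 for neurons, -1.78 for hypodermis, 0.36 for intestine and 0.14 for germline and oocytes. The part of these tissues was not tested. Abundant ugt-31 gave 50.1, 20.3, 50.3 and 36.6 CPM in PX991 SFN libraries, against 51.1, 31.1, 42.7 and 34.1 CPM in PX991 DMSO libraries. Likewise ugt-29 gave 102, 70.7, 95.8 and 58.3 CPM in PX991 SFN libraries, against 92.1, 66.5, 98.8 and 75.6 CPM in PX991 DMSO libraries. The treatments overlapped in both genes in PX991, while both were separate in N2. The difference of the SFN effects was -2.20 ± 0.32 for ugt-31 (log2, SE, adjusted p = 1.3e-05) and -2.01 ± 0.39 for ugt-29 (adjusted p = 0.0017). For the neighbours ugt-8 and ugt-9 it was -3.31 ± 0.77 (adjusted p = 0.0067) and -3.23 ± 0.82 (adjusted p = 0.015). The remaining members were ugt-7 at -2.85 ± 0.82 (adjusted p = 0.035), ugt-46 at -2.41 ± 0.56 (adjusted p = 0.0069) and ugt-24 at -1.86 ± 0.43 (adjusted p = 0.0069). In contrast, ugt-44, ugt-62, ugt-22 and ugt-66 rose in both strains at day 12, and none of them passed this test. A p that misses the threshold does not show that their changes were alike. Leaving out 1 library moved the 7 members to between 2, without PX991 DMSO replicate 1, and 9, and without the N2 pair with the fewest genes it was 11.

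At day 4, 1 of 55 members had a smaller SFN difference in PX991 than in N2, where 0.127% of all genes were smaller and the same share larger. This was ugt-52 (WBGene00018931, IV:778784-784182). It had 1.49, 1.42, 0.876 and 2.03 CPM in PX991 SFN libraries, against 0.519, 1.12, 2.05 and 2.08 CPM in PX991 DMSO libraries. In N2 it had 2.97, 1.56, 2.46 and 2.14 CPM with SFN, against 0 in all 4 DMSO libraries. The N2 level of ugt-52 with SFN rested on 23 counts and was at least 3.48 higher (log2) than a floor of 3 counts in the DMSO group, so the call came from a small number of reads. It was lost without PX991 DMSO day 4 replicate 4.

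**Figure D3:**
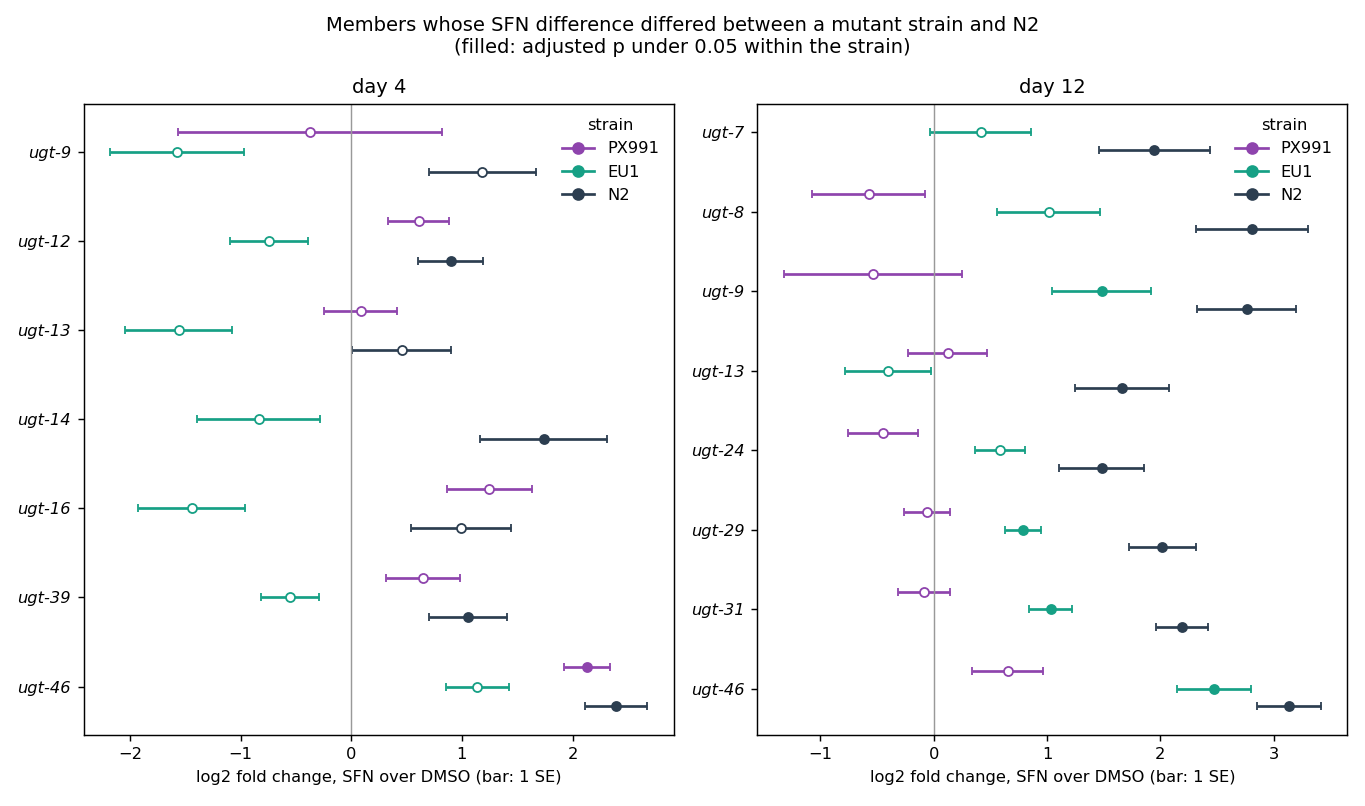
Log2 fold change of SFN over DMSO (horizontal axis, bars 1 SE) in PX991, EU1 and N2 at day 4 (left) and day 12 (right) for members (vertical axis) whose SFN difference in either mutant strain differed from that in N2, filled where the adjusted p within the strain was under 0.05; ugt-52 is left out, and a member with no PX991 point was not tested in that strain. At day 12 PX991 points of ugt-29 and ugt-31 sit at -0.06 and -0.08, EU1 points at 0.79 and 1.03 and N2 points at 2.02 and 2.19.

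In EU1, the skn-1 strain, no member passed the test at day 4, and 20 did at day 12. At day 4, 0 of 47 tested members were called in edgeR, where 0.197% of all genes rose and 0.0537% fell; 9 members had an unadjusted p under 0.05, DESeq2 called 1, and so did the fit with the replicate numbers as blocks. Leaving out either of the libraries rich in ribosomal RNA also gave 0. The median was -0.28 over members and -0.01 over all genes. For ugt-46, day 4 gave a lowest, median and highest value of 25.3, 43.1 and 67.1 CPM over 5 SFN libraries, against 3.41, 20.2 and 27.3 CPM over 6 DMSO libraries. The lowest DMSO value was that of replicate 3. These groups of ugt-46 overlapped, and the log2 fold change was 1.14 ± 0.28 (adjusted p = 0.076). With the replicate blocks ugt-46 was the member called, at 1.21 (log2). Other members with a low unadjusted p lay mostly on the negative side, among them ugt-13 at -1.56 ± 0.48 (adjusted p = 0.14) and ugt-9 at -1.57 ± 0.60 (adjusted p = 0.24).

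At day 12 in EU1, 19 of 47 tested members rose and 1 fell, where 11.2% of all genes rose and 8.1% fell, with a median of 0.79 over members and 0.00 over all genes. The family's sum averaged 619 ± 103 CPM in SFN libraries and 384 ± 43.6 CPM in DMSO libraries (SD, n = 6 each). For ugt-44 the lowest, median and highest values were 4.42, 10.7 and 14.6 CPM over 6 SFN libraries, against 0.198, 0.761 and 2.68 CPM over 6 DMSO libraries. For ugt-62 they were 26.8, 40.3 and 68.0 CPM with SFN, against 4.14, 6.29 and 14.1 CPM with DMSO. For ugt-46 they were 8.14, 11.3 and 20.0 CPM with SFN, against 1.72, 2.28 and 3.17 CPM with DMSO. None of these overlapped, and the log2 fold changes were 3.19 ± 0.37 for ugt-44 (adjusted p = 1.1e-05), 2.48 ± 0.33 for ugt-62 (adjusted p = 0.00014) and 2.47 ± 0.33 for ugt-46 (adjusted p = 2.8e-05). For ugt-66 the values were 7.98, 19.7 and 34.9 CPM with SFN, against 0.824, 2.80 and 9.51 CPM with DMSO, which overlapped, and the log2 fold change was 2.37 ± 0.57 (adjusted p = 0.0084).

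Further members rose in EU1 at day 12 from levels near the limit of counting. In ugt-6, 27 counts with SFN and 2 with DMSO gave a ratio of 12.0, with a 95% counting interval of 3.02 to 104. In ugt-43, next to ugt-44 on chromosome IV, 14 counts with SFN and 2 with DMSO gave a ratio of 6.23, with an interval of 1.43 to 56.5. These intervals cover counting error only. In ugt-53, 38 counts with SFN and 5 with DMSO went with a log2 fold change of 2.61 ± 0.63. The member that fell was ugt-45 (WBGene00021372, IV:3748210-3751101), named after its value was seen, with 3.86, 6.37 and 9.10 CPM as lowest, median and highest SFN values, against 8.12, 11.6 and 16.9 CPM with DMSO. These values overlapped, and its log2 fold change was -0.85 ± 0.22 (adjusted p = 0.01). Marker genes moved here as well: both tested hypodermis markers rose, with sums of 82.6 to 209.7 CPM in SFN libraries and 29.1 to 56.5 CPM in DMSO libraries, 5 of 6 muscle markers rose, with sums of 159.9 to 427 CPM in SFN libraries and 52.2 to 253 CPM in DMSO libraries, and 3 of 6 intestine markers rose, with sums of 87.4 to 138 CPM with SFN and 69.3 to 162 CPM with DMSO. Their part was not tested.

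Set against N2 in 1 model, the SFN difference in EU1 was smaller for 8 of 55 members at day 4 and for 2 at day 12, and larger for none. All genes gave 6.26% smaller and 3.34% larger at day 4, and 1.11% smaller and 0.334% larger at day 12, beside 14.5% and 3.64% of members. The medians were -0.89 over members and -0.13 over all genes at day 4, and -0.58 and -0.12 at day 12. Marker medians at day 4 were -1.39 for muscle, -1.39 for neurons, -1.25 for hypodermis, -0.28 for intestine and 0.09 for germline and oocytes. At day 12 they were -0.82, -0.82, -1.03, 0.18 and 0.09 in that order. Lower medians were thus not particular to the UGT members, and the part of these tissues was not tested. At day 4 the members with the smallest adjusted p after ugt-52 were ugt-16 at -2.42 ± 0.62 (adjusted p = 0.01), ugt-39 at -1.61 ± 0.45 (adjusted p = 0.016) and ugt-12 at -1.66 (adjusted p = 0.025). Then came ugt-46 at -1.29 ± 0.41 (adjusted p = 0.033), ugt-13 at -2.0 (adjusted p = 0.034), ugt-9 at -2.78 ± 0.88 (adjusted p = 0.035) and ugt-14 at -2.59 (adjusted p = 0.048). In ugt-9, day 4 gave 0.254, 0.587 and 2.45 CPM as lowest, median and highest values over 5 EU1 SFN libraries, against 0.351, 2.34 and 9.73 CPM over 6 EU1 DMSO libraries. In N2 it gave 8.54, 8.6, 11.8 and 12.9 CPM with SFN, against 5.37, 3.31, 5.82 and 0 CPM with DMSO, the 0 again in the library with the fewest genes. So the strains lay on opposite sides, although neither strain's own difference in ugt-9 passed the test at that age. The count of 8 moved between 3 (without N2 DMSO replicate 2) and 20 (without N2 DMSO replicate 3) when 1 library was left out, was 4 without EU1 DMSO replicate 6, was 5 without EU1 SFN replicate 3, 4 or 6 or any 1 of the 4 N2 SFN libraries of that age, and was 7 without the N2 pair with the fewest genes.

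At day 12 the members were ugt-13 and ugt-31. In ugt-13 (WBGene00019232, V:4908884-4911399), EU1 had 1.82, 2.73 and 5.30 CPM as lowest, median and highest SFN values, against 3.02, 4.04 and 4.95 CPM with DMSO. N2 had 10.1, 16.6, 10 and 11.6 CPM with SFN, against 3.78, 4.28, 4.14 and 2.93 CPM with DMSO. The EU1 groups of ugt-13 overlapped while the N2 groups did not, and the difference of the SFN effects was -2.05 ± 0.53 (adjusted p = 0.031). In ugt-31, EU1 had 24, 29.3 and 42 CPM with SFN, against 11.5, 15.5 and 19.3 CPM with DMSO. It rose in EU1 by 1.03 ± 0.19 (log2, SE), and its SFN effect in EU1 minus that in N2 was -1.15 ± 0.28 (adjusted p = 0.027). No member remained past the threshold without N2 SFN replicate 1 or 2, N2 DMSO replicate 1 or 2 or EU1 SFN replicate 5 of day 12, 1 remained without several others, and 4 passed without EU1 SFN replicate 2 or without the N2 pair with the fewest genes. Strain and table are confounded in these levels, so each strain was set against its own DMSO libraries, and PX991 and EU1 share the N2 libraries in both differences.

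Age alone was followed in the 40 N2 DMSO libraries of trials 2 and 3, which entered no SFN comparison. Between day 16 and day 2, 28 of 44 tested members fell and 3 rose, where 31% of all genes fell and 32.7% rose, and the median was -0.99 over members and 0.03 over all genes. Some difference between ages passed for 38 of 44 members, beside 78.6% of all genes. The summed level of the family averaged 451 ± 67.0 CPM at day 16 and 793 ± 145 CPM at day 2 in trial 2, and 415 ± 31 CPM at day 16 and 1380.4 ± 254 CPM at day 2 in trial 3 (SD, n = 4 each).

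The steepest fall was that of ugt-44. In trial 2 it gave 3.02, 2.36, 0.465 and 0.756 CPM at day 16, against 146, 132, 75.5 and 42.7 CPM at day 2. In trial 3 it gave 1.48, 0, 0.672 and 0.293 CPM at day 16, against 125, 124, 230.1 and 189 CPM at day 2. Every day 16 library was far below every day 2 library in both trials, with a log2 fold change of -7.0 ± 0.39 (SE, adjusted p = 1.6e-17). The trial 2 means of ugt-44 at days 2, 4, 8, 12 and 16 were 99.2, 53.9, 22.8, 3.06 and 1.65 CPM. Its neighbour ugt-43 fell by 5.54 ± 0.43 (log2, SE), and ugt-6 had 3 counts over the 8 day 16 libraries and 369 over the 8 day 2 libraries, a ratio of day 2 over day 16 of 85.6 with a 95% counting interval of 29.1 to 417. Next in size were ugt-53 at -5.62 ± 0.49, ugt-47 at -4.04 ± 0.33, ugt-65 at -3.97 ± 0.48 and ugt-22 at -3.94 ± 0.30. Means of ugt-53 in trial 3 at days 2, 4, 8, 12 and 16 were 18.6, 18.6, 1.81, 0 and 0.247 CPM, so the loss in that gene came after day 4.

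The members that rose were ugt-18, ugt-24 and ugt-58, and ugt-18 is named because only 3 rose. For ugt-18, trial 2 gave 3.62, 6.07, 2.79 and 8.31 CPM at day 16, against 0.745, 0, 0.793 and 0.392 CPM at day 2. Trial 3 gave 5.43, 3.30, 3.36 and 4.40 CPM at day 16, against 2.79, 0.969, 0.873 and 2.85 CPM at day 2. The day 16 libraries of ugt-18 were above the day 2 libraries of their own trial, and the log2 fold change was 2.23 ± 0.47 (adjusted p = 6.8e-05). The others were small, 0.63 ± 0.23 for ugt-24 (adjusted p = 0.018) and 0.38 ± 0.11 for ugt-58 (adjusted p = 0.0032). For ugt-58, trial 3 gave 37, 53.7, 43.7 and 52.2 CPM at day 16, against 39.1, 42, 46.3 and 53.7 CPM at day 2, which overlapped, while trial 2 gave 50.1, 45.2, 45.6 and 61.2 CPM at day 16, against 33, 34.8, 31.7 and 26.2 CPM at day 2, which did not.

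**Figure D4:**
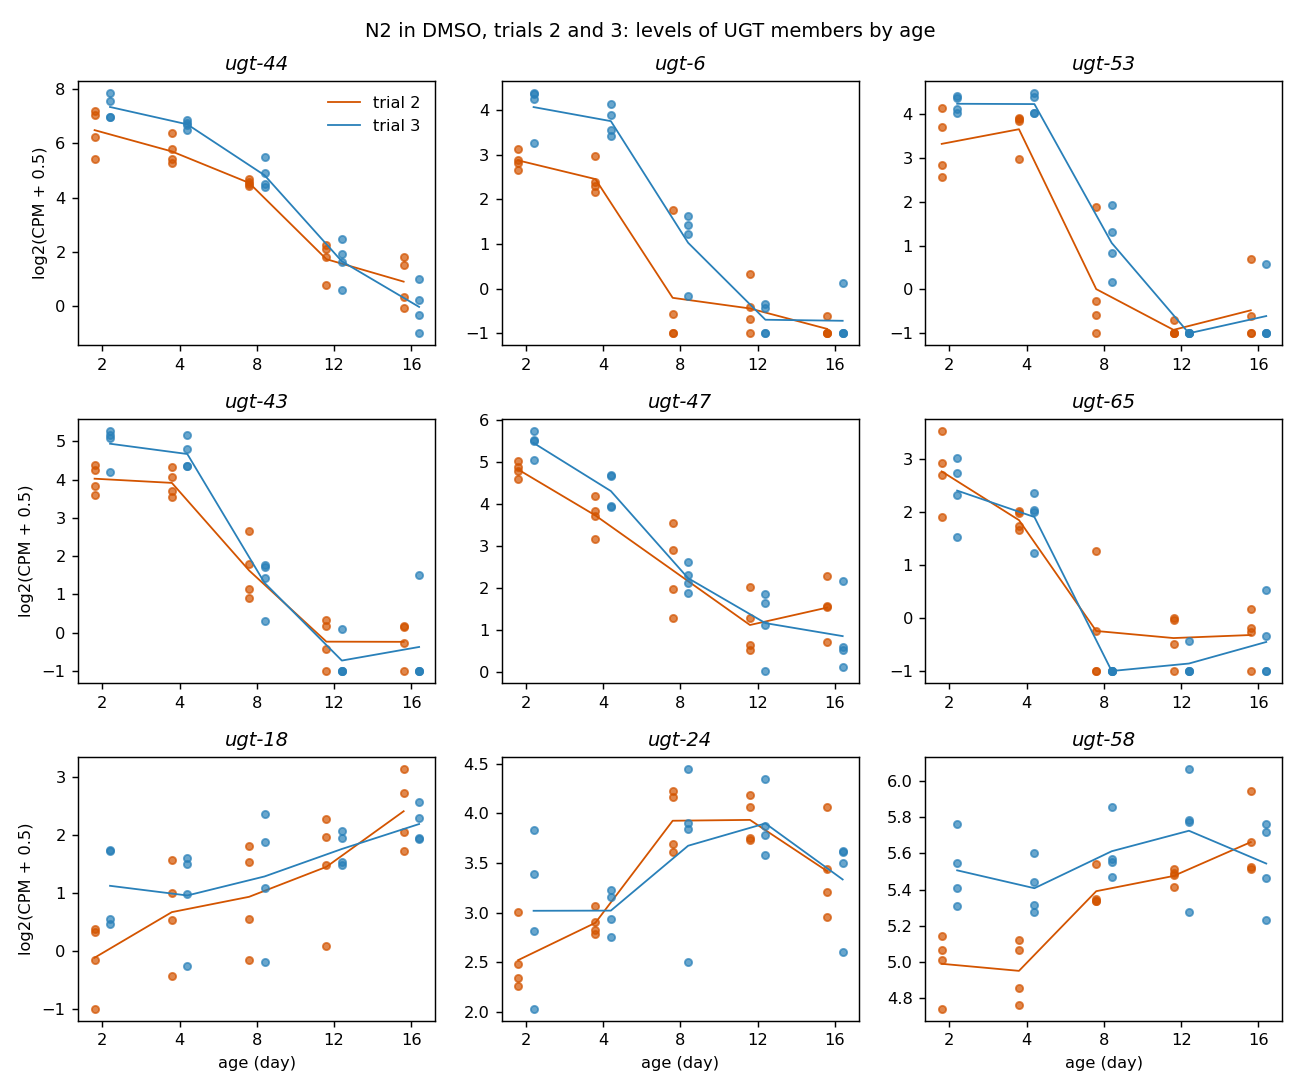
Level as log2(CPM + 0.5) (vertical axis) against age in days (horizontal axis) in N2 DMSO libraries of trials 2 and 3 for the 6 UGT members with the largest falls between day 16 and day 2 and the 3 that rose, one point per library and a line through the means of 4. The levels of ugt-44 decline at each age in trial 3, and those of ugt-53 and ugt-65 drop between days 4 and 8.

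Each trial was also fitted alone. Trial 2 alone gave 23 of 50 tested members lower and 7 higher, where 26.9% of all genes were lower and 28.2% higher. Trial 3 alone gave 29 of 45 lower and none higher, where 25.2% of all genes were lower and 27% higher, and ugt-18, ugt-24 and ugt-58 did not pass there. The DMSO libraries of the N2 treatment table, fitted in the same way, gave 19 of 52 lower and 4 higher, where 14.9% of all genes were lower and 24.8% higher. In those libraries ugt-19, ugt-28, ugt-48 and ugt-61, which fell in trials 2 and 3 together, lay on the positive side without passing the test. Tissue markers fell with age too in trials 2 and 3, all 6 of the intestine, 5 of 6 of muscle, 2 of 2 tested of hypodermis and 7 of 9 of germline and oocytes. Of the tested neuron markers 4 of 6 rose. Over all genes in that comparison 31% fell and 32.7% rose. The part of these markers in the UGT falls was not tested.

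Age and SFN were then set side by side. Of the 28 members that fell with age, 15 (53.6%) rose with SFN in N2 at day 12, beside 25.3% of the 3371 genes that fell with age and were tested in both. Of all 56 members tested in N2, 53.6% rose at day 12. Among them were 3 of 3 that rose with age and 6 of 13 not called for age. At N2 day 16 the share of fallers was 9 of 28 (32.1%), beside 23.5%, with 1 of 3 and 6 of 13 in those other classes. At N2 days 2, 4 and 8 it was 2, 4 and 4 of 28, beside 2.37%, 9.55% and 8.01%. In PX991 it was 3 of 25 (12.0%) at day 12, beside 5.36%, and 4 of 25 (16.0%) at day 4, beside 0.721%. In EU1 at day 12 it was 12 of 27 (44.4%), beside 24.5%, with 0 of 3 and 5 of 13 in the other classes. At EU1 day 4 it was 0 of 27, beside 0.0906%. The 4 members with the steepest falls, ugt-44, ugt-6, ugt-53 and ugt-43, all rose with SFN in EU1 at day 12. In N2 at day 12, ugt-44 and ugt-6 rose, while ugt-43 at 2.35 (log2, adjusted p = 0.0804) and ugt-53 at 0.59 (adjusted p = 0.77) did not pass, and in PX991 at day 12 only ugt-44 of the 4 passed. Across 43 members in EU1 at day 12 Pearson's r between the age change and the SFN change was -0.64, beside -0.53 over all genes, and across 39 members in PX991 at day 12 it was -0.69, beside -0.52. Across 44 members in N2 it was -0.29 at day 12, beside -0.48, and 0.29 at day 16, beside -0.31, so at day 16 members and all genes lay on opposite sides. These correlations run across genes, which share libraries and are not independent, and are given as a description. The highest SFN library of ugt-44 at N2 day 12 held 36 CPM, and the lowest of its 8 day 2 libraries in trials 2 and 3 held 42.7 CPM, in tables that were scaled separately.

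**Figure D5:**
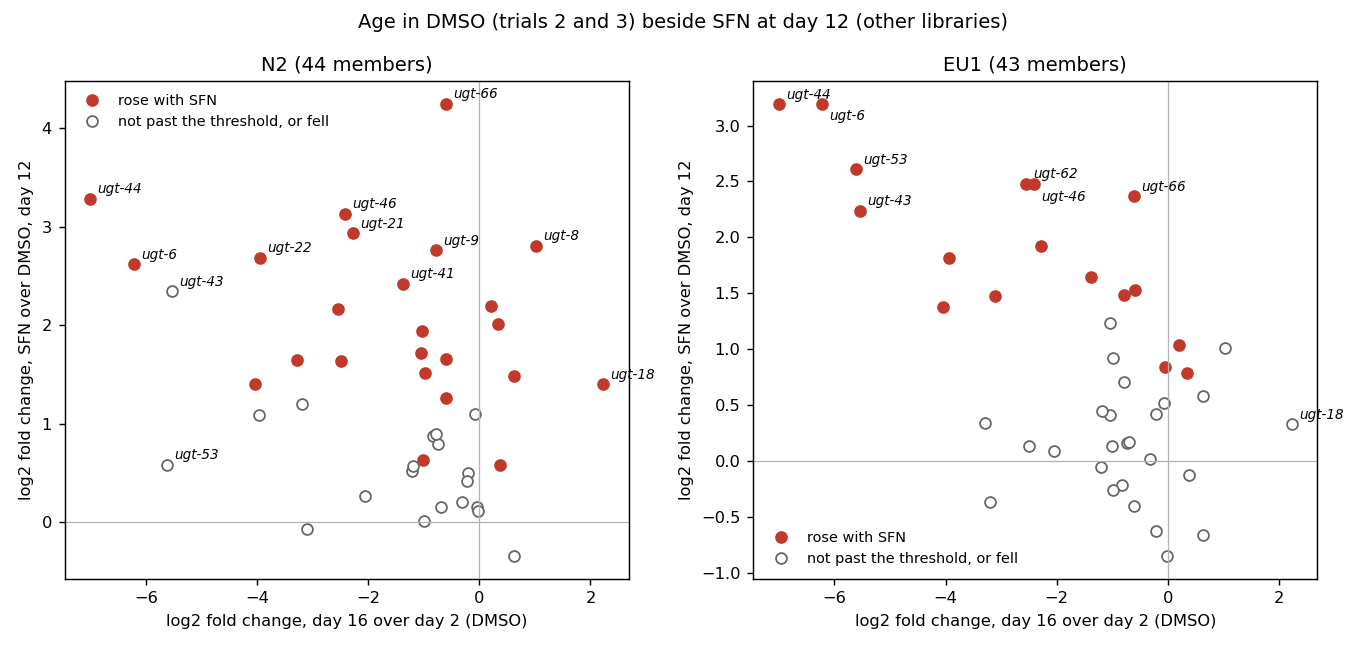
Log2 fold change of SFN over DMSO at day 12 (vertical axis) against log2 fold change of day 16 over day 2 in DMSO libraries of trials 2 and 3 (horizontal axis), one point per UGT member, N2 left and EU1 right, filled where the member rose with SFN. In both panels ugt-44 is farthest left, at -7.0, and stands above 3 on the SFN axis.

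Genes that work before and after the UGT step were taken from lists of textbook members. The supply of the sugar donor was covered by 5 genes: rml-1 and D1005.2, of the UTP-glucose-1-phosphate uridylyltransferase family, sqv-4, the UDP-glucose dehydrogenase that makes UDP-glucuronate, sqv-7, a carrier of UDP-sugars into the Golgi, and sqv-1, which turns UDP-glucuronate into UDP-xylose. In N2, 1 of 5 rose at day 2 (sqv-7, 0.63 ± 0.18, adjusted p = 0.035) and 4 of 5 at day 16, and none passed at days 4, 8 or 12. Over all genes tested 2.7% rose at day 2 and 11.9% at day 16. At day 16 the log2 fold changes were 0.89 ± 0.17 for sqv-7, 0.65 ± 0.12 for rml-1, 0.62 ± 0.10 for sqv-4 (adjusted p = 3.7e-06) and 0.51 ± 0.10 for sqv-1. None of the donor genes passed the test in PX991 or EU1. All 4 tested in trials 2 and 3 were lower at day 16 than at day 2, from -0.61 for sqv-7 to -0.28 for sqv-4, where 31% of all genes were lower.

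Efflux transporters of the ABC families, which carry conjugates and drugs out of cells, were tested for 21 genes in N2. Of these 4, 6, 3, 10 and 7 rose at days 2, 4, 8, 12 and 16, and 1 fell at day 16, mrp-5. Over all genes tested 2.7%, 7.06%, 2.84%, 13.8% and 11.9% rose at those ages, and 7.45% fell at day 16. The P-glycoprotein gene pgp-14 rose at every N2 age, with log2 fold changes of 1.82, 2.59, 1.96, 2.47 and 1.31, as ugt-46 did among the UGT members. The largest fold change at day 12 was that of pgp-12, 3.37 ± 0.33, and at day 16 it was 3.50 ± 0.34. In PX991 pgp-14 alone rose at day 4 (1.75 ± 0.35), beside 0.347% of all genes, and none of 21 passed at day 12. For pgp-12 at day 12 the SFN effect in PX991 minus that in N2 was -3.97 ± 0.52 (log2, adjusted p = 4.1e-06). In EU1 none passed at day 4, and 6 rose and 4 fell at day 12, with pgp-12 at 2.47 ± 0.30 and pgp-1 at -1.24 ± 0.26. At EU1 day 12, 11.2% of all genes rose and 8.1% fell. With age in trials 2 and 3, 9 of 22 rose and 10 fell, where 32.7% of all genes rose and 31% fell.

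Of 8 regulators of detoxification genes, 2 rose at each of days 2, 4, 12 and 16 in N2 and none at day 8. Over all genes tested 2.7%, 7.06%, 13.8% and 11.9% rose at those 4 ages. The regulators that rose were hif-1, the hypoxia factor, at all 4 ages, up to 0.96 ± 0.15 at day 4, wdr-23, the negative regulator of SKN-1, at days 2, 12 and 16, and daf-16 at day 4. No regulator passed in PX991, and in EU1 only aha-1, a partner of the aryl hydrocarbon receptor, passed, falling by 0.92 ± 0.21 on the log2 scale at day 12. There 8.1% of all genes fell.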

How the data were processed

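RNA of whole adult worms was measured in 119 libraries, made with a KAPA mRNA HyperPrep kit per the labels' protocols. The authors deposited raw read counts per gene in 3 tables, made with featureCounts of Subread 2.0.2 on WBcel235, per the submitters' processing notes. The N2 treatment table used exons of Ensembl release 108 and left strand unset, per the file headers; the aligner, and the strand and multiple-mapping settings of the other tables, are not given in the sources used here. No count column was left unused. All 46926 identifiers were matched to names and positions in Ensembl release 115 of the same build. The members and gene lists were chosen with earlier results of these data known.

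Replicates were separate worm samples, aged and collected together, except EU1 replicates 4 to 6, which came from independent collections. All 199 replicate pairs within groups were compared by chi-square, and none was identical (2.21 to 249.7 per degree of freedom over genes with at least 10 counts). No library was thus a copy of another, which does not show that they were independent. Each library counted as 1 replicate. The p-values within N2 and within PX991 therefore rest on the spread among worm samples aged and collected together, not among repeats of the treatment. For EU1, all 11 same-numbered pairs of SFN and DMSO libraries deviated together (correlation 0.122 to 0.481). Some pairs with different numbers did so as well, with 0.304 for SFN replicate 2 and DMSO replicate 1 at day 12. SFN replicate 5 and DMSO replicate 6 gave 0.353 at day 4. The correlations thus do not settle whether the numbers pair the libraries. The main EU1 fit held a term for collections only, and a fit with the numbers as blocks is given below.

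Tests used edgeR 4.0.16 in R 4.3.3 (limma 3.58.1): filterByExpr, TMM scaling, robust quasi-likelihood F tests and Benjamini-Hochberg adjustment over all genes of a comparison, with an adjusted p under 0.05 as the threshold. Separate fits covered N2 (40 libraries, 30 residual degrees of freedom), PX991 (16 libraries), EU1 (23 libraries, with a term for collections), N2 days 4 and 12 with both mutants (55 libraries, for the difference of SFN effects) and trials 2 and 3 (40 libraries, with a term for trial). The SE of a log2 fold change was calculated back from the test, as its absolute value over the square root of F. A prior count enters the log2 fold change and not F, so the SE is approximate where counts are few. The scripts were tested on simulated data. CPM used effective library sizes, TPM used summed exon length, and a floor of 3 counts over a group gave lower bounds. Total counts per library, from 0.445 to 12.5 M, set the precision, and intervals cover counting error only. Genes named were those with the largest changes, those called at 3 or more N2 ages or in a test of differences, the 10 highest by TPM, their neighbours in a run, and the whole donor supply list. Of 23 efflux genes listed, 22 matched the annotation. Alternatives were RLE scaling, no filter and a filter of 1 CPM in 75% of libraries, replicate blocks, fits of only the 2 groups, no collection term, each trial alone, DESeq2 1.42.0 and each library left out.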

Additional observations from a re-analysis of the deposited data

Results flagged for a closer look

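The size of the SFN effect differed between a mutant strain and N2, by a test of the difference itself (edgeR, adjusted p under 0.05), for the members that follow. At day 12 the effect in PX991 minus that in N2 was -3.31 (log2) for ugt-8, -3.23 for ugt-9, -2.85 for ugt-7, -2.41 for ugt-46, -2.20 for ugt-31, -2.01 for ugt-29 and -1.86 for ugt-24. The effect in EU1 minus that in N2 was -2.78 for ugt-9, -2.59 for ugt-14, -2.42 for ugt-16, -2.0 for ugt-13, -1.66 for ugt-12, -1.61 for ugt-39 and -1.29 for ugt-46 at day 4. At day 12 it was -2.05 for ugt-13 and -1.15 for ugt-31. For ugt-52 at day 4 the fitted differences were -6.34 in PX991 and -6.15 in EU1. Because ugt-52 had 0 counts in the N2 DMSO group of that age, these fitted sizes depend on the prior count and bound nothing.

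The SFN effect differed between the 5 ages of N2 in 15 members. The adjusted p of the F test was 1.2e-07 for ugt-22, 1.1e-05 for ugt-31, 2.2e-05 for ugt-66, 6.1e-05 for ugt-41, 0.00063 for ugt-1, 0.0028 for ugt-62, 0.0031 for ugt-44, 0.0081 for ugt-14 and 0.0096 for ugt-46. It was 0.026 for ugt-52, 0.038 for ugt-9, 0.039 for ugt-8, 0.041 for ugt-36, 0.041 for ugt-33 and 0.043 for ugt-29.

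Single libraries were flagged as apart from the rest of their group in 12 of 280 group checks. The checks covered the family's sum and the 9 members that rose at 3 or more ages in N2. Chance gives about 1 in 20, so the number of flags was not above chance. The flag rests on the gap relative to the range of the group, so a flagged value can be close to the others in level. The sum of the 65 members was 1079.96 CPM in N2 SFN day 4 replicate 1, where the others lay between 1011 and 1017 CPM. High values of ugt-14 were 1.05 CPM in N2 DMSO day 16 replicate 3, 2.29 CPM in EU1 SFN day 4 replicate 2, 13.1 CPM in EU1 SFN day 12 replicate 4 and 1.78 CPM in N2 DMSO day 2 replicate 3 of trial 2. For ugt-19, PX991 DMSO day 12 replicate 3 was low at 4.45 CPM and N2 DMSO day 8 replicate 4 of trial 3 was high at 7.75 CPM, a library that was also high for ugt-62 at 56.7 CPM. For PX991 SFN day 12, ugt-39 was high in replicate 4 at 7.75 CPM and ugt-41 in replicate 2 at 36.9 CPM. For EU1 DMSO day 4, ugt-46 was low in replicate 3 at 3.41 CPM and ugt-62 high in replicate 4 at 169.9 CPM.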

How the results depend on the processing

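Over 199 results for single members past the threshold, leaving out 1 library in turn gave 3792 values. The F tests between ages, refitted 40 times each, gave 15 and 38 of these results and have no direction. A change of sign was therefore not possible for them. Of the values, 3443 kept the call and any direction, 349 lost the call without a change of sign, and 0 changed sign. The call was kept throughout in 144 results. The other alternatives gave 1250 values, of which 1170 kept the call and any direction, 75 lost the call and 5 changed sign. The changes of sign were all in the age comparison: ugt-19 gave 0.28 (log2) in trial 2 alone, and in the DMSO libraries of the N2 treatment table ugt-19 gave 1.19, ugt-28 gave 0.60, ugt-48 gave 0.60 and ugt-61 gave 0.39; the cause was not tested. Counts of members past the threshold moved by over 1.5 times as follows, and the cause was not tested. With only the 2 groups in the fit, where the filter left 43, 39 and 43 members, N2 day 2 gave 0, day 4 gave 1 and day 8 gave 18. DESeq2 gave 6 at N2 day 2, 12 at N2 day 4 and 1 at EU1 day 4. Without a filter on low counts N2 day 8 gave 10, EU1 day 4 gave 3 and the difference between EU1 and N2 at day 12 gave 4. Without the N2 DMSO pair with the fewest genes, an alternative chosen after seeing the data, N2 day 2 gave 5, N2 day 8 gave 10, PX991 minus N2 at day 12 gave 11 and EU1 minus N2 at day 12 gave 4. Leaving out 1 library gave 3 to 5 members at N2 day 2, 2 to 18 at day 4, 3 to 5 at day 8, 25 to 31 at day 12 and 16 to 25 at day 16, and 10 to 15 for the difference between ages. It gave 3 in PX991 at day 4 and 4 to 5 at day 12, and 0 in EU1 at day 4 and 17 to 23 at day 12. It gave 0 to 1 and 2 to 9 for PX991 minus N2 at days 4 and 12, 3 to 20 and 0 to 4 for EU1 minus N2, and 31 to 33 for day 16 against day 2 with 38 to 41 for any age. With the replicate block, EU1 day 4 gave 1 (ugt-46), EU1 day 12 gave 21, and no other count moved by over 1.5 times. In N2 and PX991 there was little sign of pairing by number, since 3 of 20 and 2 of 8 same-numbered pairs correlated above 0.1 (from -0.125 to 0.333 and from -0.138 to 0.163). The block gave 3, 7, 6, 30 and 22 members at the 5 N2 ages and 4 and 4 in PX991. Depth limits the weakest members: 40 had enough counts for a test in PX991, whose median depth was the lowest, and 56 in N2.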
